A study of Rattus norvegicus with 12 samples.

Results

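The 9 membrane-bound adenylyl cyclases, Adcy1 to Adcy9, were followed by gene symbol in bulk RNA sequencing of rat brain tissue. All 9 were found among the 18800 gene symbols measured, and all 9 passed the filter on low counts, which left 15485 genes to test. The animals were Sprague-Dawley rats, and all 3 groups were restrained by binding. The control group had restraint alone, with no electroacupuncture. Its columns are named Sham, and the labels give it no operation. The model group had middle cerebral artery occlusion followed by reperfusion (MCAO/R), in which a large artery of the brain is blocked and then reopened, and received no electroacupuncture. The electroacupuncture group had MCAO/R and then current through needles at the Tianfu, Chize, Kongzui and Taiyuan points of the foreleg. Age, sex, brain region, side and time after reperfusion were not given in the sources used here. Synaptic plasticity after ischemia is the subject named in the study's title.

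Adenylyl cyclases make cyclic AMP (cAMP) from ATP. Receptors coupled to the G protein Gs switch them on and receptors coupled to Gi hold several of them down, and cAMP then acts through protein kinase A (PKA), the exchange factors Epac1 and Epac2, and cyclic nucleotide-gated channels. The isoforms differ in what else controls them. Adcy1 and Adcy8 are stimulated by calcium and calmodulin and serve synaptic plasticity in the hippocampus and cortex, and Adcy3 is the cyclase of olfactory neurons and of neuronal primary cilia. Adcy5 and Adcy6 are inhibited by calcium, and Adcy5 is the main isoform of the striatum, downstream of dopamine and adenosine receptors. Adcy2, Adcy4 and Adcy7 respond to G protein beta-gamma subunits, and Adcy9 is widely expressed and only weakly sensitive to forskolin.

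Labels list 12 samples, 4 in each group, while the count table has 11 columns, named for 3 control, 4 model and 4 electroacupuncture samples. Counts in 3 pairs of same-group columns were nearly alike, differing (median square over genes, relative to sampling variance) by a factor of 1.34 to 1.4, against 4.75 to 26.5 times in the other 12 pairs within a group. Each of the 3 pairs was summed and counted as 1 sample. The 40 pairs of columns from different groups differed by 3.65 to 29.5 times, a range that overlaps that of the unsummed pairs. Columns of 1 group, unless summed, were thus not always more alike than columns of different groups. Samples then numbered 8: controls A to C, models A and B (each a sum), and electroacupuncture A to C (B a sum), with totals of 9335913 to 23835771 counts. Whether each sample is its own animal is not stated, and p-values therefore measure how far these samples spread, which may be technical. Libraries also stood apart in markers of brain regions. Summed hippocampal markers (11 listed, 11 in the table) lay between 826 and 981 CPM (counts scaled to library size, with TMM factors) in the control samples, at 219 in model A, at 216 in model B, and at 260, 734 and 752 in electroacupuncture A to C. Of these markers Spink8 was at 0 in control B. Summed striatal markers (12 listed, none at 0) lay between 207 and 395 CPM in the control samples, at 820 and 334 in the model samples, and at 5226, 361 and 206 in the electroacupuncture samples. Summed neuronal markers (9 listed, none at 0) were present in every sample, from 4172 to 11372 CPM. In bulk tissue, fewer cells of a type and less RNA per cell cannot be told apart.

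No adenylyl cyclase passed the test in any of the 3 comparisons. Between model and control, 0 of 9 had an adjusted p under 0.05 (edgeR quasi-likelihood test, Benjamini-Hochberg adjustment over all genes tested), against 0.00646% of all genes, a share made up of the single gene Camk2d. At an unadjusted p under 0.05 there were also 0 of 9 in this fit, against 13.8% of all genes. By DESeq2 0 of 9 were called, against 4.91%, and with all 11 columns as separate libraries 0 of 9, against 7.37%. An unadjusted p under 0.05 was reached by 2 of 9 with DESeq2 (Adcy1 and Adcy4). With 11 columns it was reached by 4 of 9 (Adcy1, Adcy3, Adcy4 and Adcy6). For these 2 fits the share of all genes at that unadjusted threshold was not counted. Between electroacupuncture and model, 0 of 9 were called, against 0% of all genes, and 1 of 9, Adcy3, had an unadjusted p under 0.05, against 13.5%. DESeq2 called 0 of 9 there, against 4.26%, and the fit of 11 columns called 1 of 9, Adcy3, against 10.9%. Between electroacupuncture and control, 0 of 9 were called against 0% of all genes, with 0 of 9 at an unadjusted p under 0.05 against 3.67%. By DESeq2 0 of 9 were called against 0.0054% of all genes (1 gene, LOC103690016), and by the fit of 11 columns 0 of 9 against 0%. DESeq2 gave an unadjusted p under 0.05 for 1 of 9 there, Adcy5, and the share of all genes was not counted. Camk2d and LOC103690016 are named here because of their results.

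Between model and control, 5 of 9 members had no overlap between the groups, against 37.8% of all genes: Adcy1 and Adcy3 were lower in both model samples than in any control sample, and Adcy5, Adcy6 and Adcy7 were higher. Between electroacupuncture and model 1 of 9 did not overlap (Adcy3, higher with electroacupuncture), against 24.6% of all genes. Between electroacupuncture and control 1 of 9 did not overlap (Adcy1, lower with electroacupuncture), against 10.8% of all genes. The median log2 fold change of the 9 was 0.07 for model over control, -0.03 for electroacupuncture over model and 0.10 for electroacupuncture over control. Over all genes tested these medians were 0.02, 0.03 and 0.01. Because the comparisons share samples, they are not independent of one another.

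**Figure D1:**
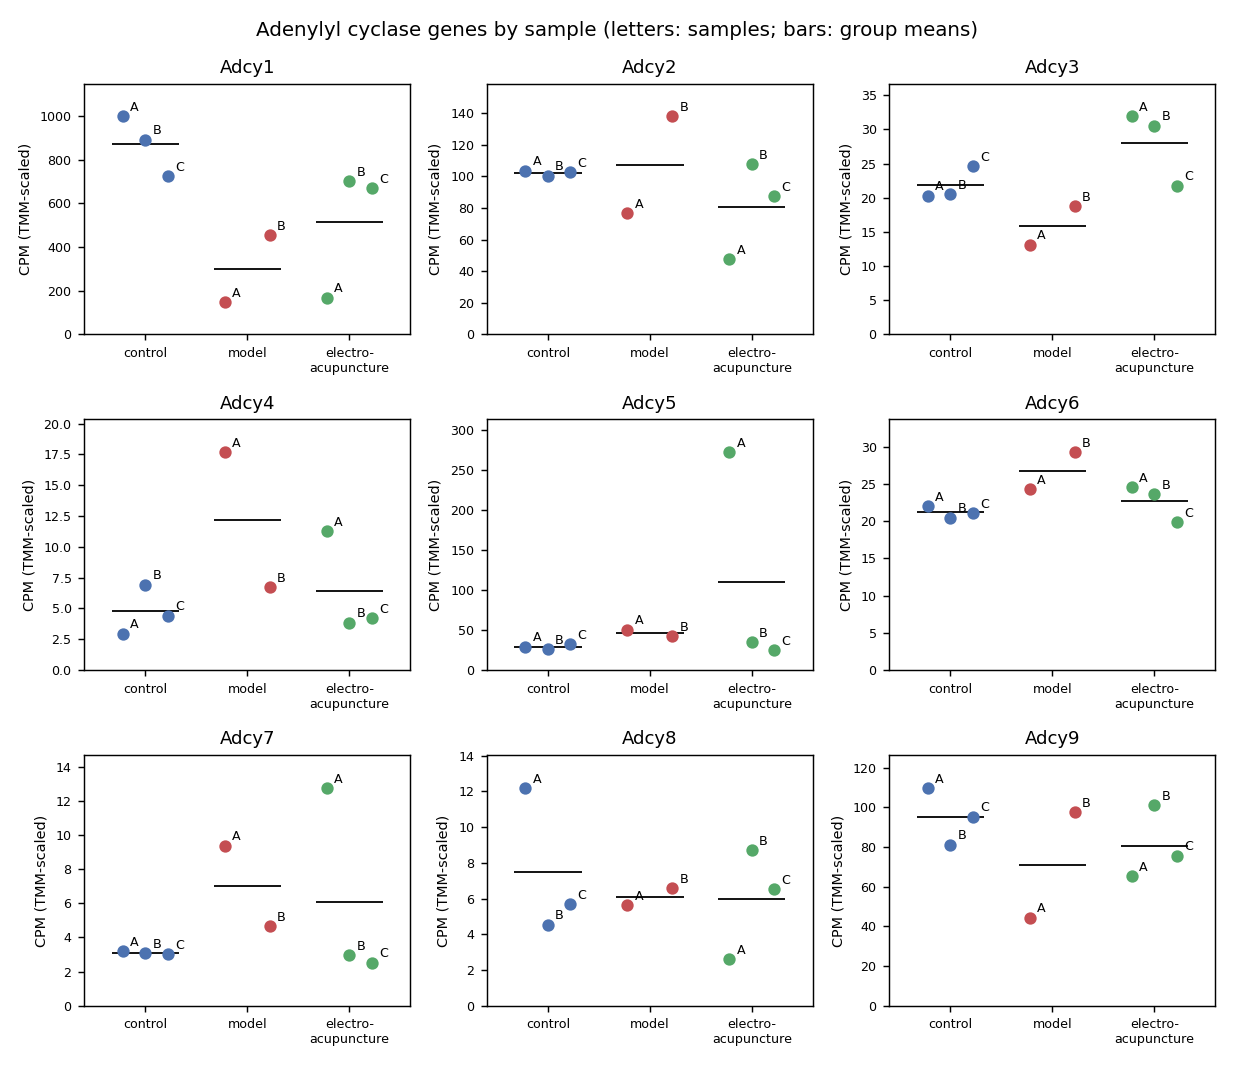
Level of each of the 9 adenylyl cyclases in CPM (vertical axes, linear from 0, a scale for each gene) in the 8 samples, with lettered points for samples of the control, model and electroacupuncture groups and bars for group means. Adcy1 is lowest in model A (147 CPM) and electroacupuncture A (166 CPM), below the 725 to 1000.1 CPM of the controls, and Adcy5 stands at 272 CPM in electroacupuncture A alone.

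**Figure D2:**
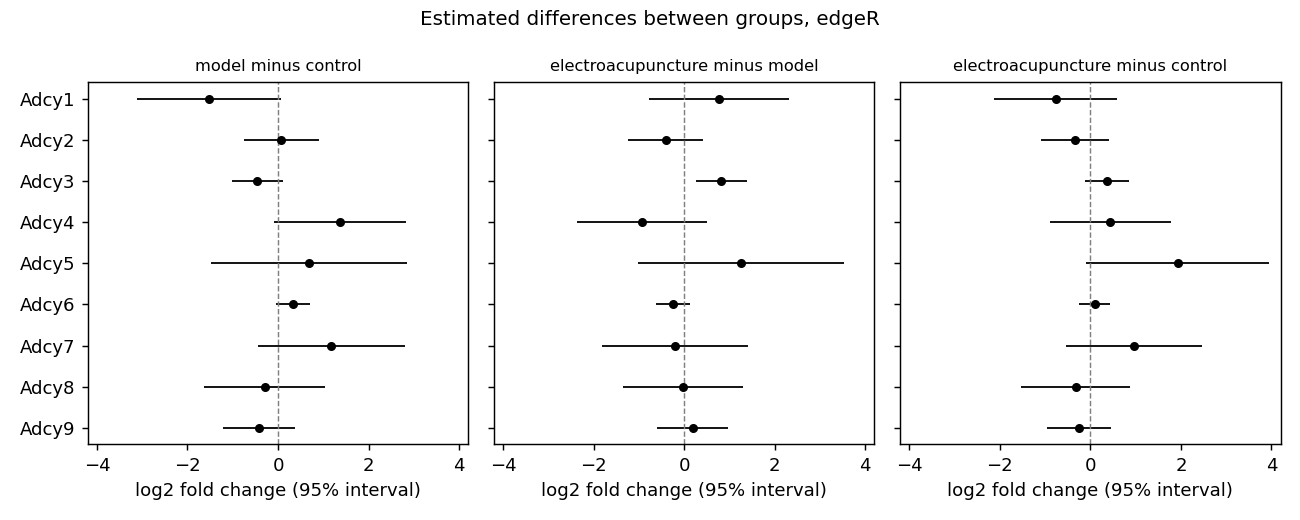
Log2 fold change of each of the 9 adenylyl cyclases (horizontal axis) in the 3 comparisons, as points with 95% intervals from the edgeR fit of 8 samples. The interval of Adcy3 for electroacupuncture over model, 0.26 to 1.38, is the one that does not include 0, and its adjusted p is 0.221.

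Adcy1, the calcium-stimulated isoform of hippocampal and cortical synapses, was lower in every operated sample than in any control sample. It measured 1000.1, 892 and 725 CPM in controls A to C, 147 CPM in model A, 455 CPM in model B, and 166, 703 and 669 CPM in electroacupuncture A to C. Within the operated groups, model A and electroacupuncture A stood apart at the bottom. Group means were 872 ± 139 CPM (SD, n = 3) in control, 301 ± 218 CPM (SD, n = 2) in model and 513 ± 301 CPM (SD, n = 3) in electroacupuncture. The log2 fold change of model over control was -1.54 (SE 0.68, 95% interval -3.13 to 0.06, adjusted p = 0.377, edgeR), of electroacupuncture over model 0.77 (SE 0.66, interval -0.77 to 2.31, adjusted p = 0.690), and of electroacupuncture over control -0.77 (SE 0.58, interval -2.12 to 0.59, adjusted p = 0.843). No difference passed the test. The model estimate was -0.94 without model A and -2.58 without model B. The estimate of electroacupuncture over model was 1.81 without model B, 1.19 without electroacupuncture A and 0.17 without model A.

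Hippocampal markers, like Adcy1, were lower in the model samples and electroacupuncture A than in all other samples. Prox1, a transcription factor of dentate granule cells, measured 96.1, 70.8 and 62.7 CPM in the control samples, 6.38 and 3.83 CPM in the model samples, and 9.80, 61.3 and 61.1 CPM in the electroacupuncture samples. Adcy1 therefore was low in the samples where Prox1 was low, with model B the sample in which Prox1 was lowest but Adcy1 was not. Per 100 CPM of the summed hippocampal markers, Adcy1 stood at 102, 108 and 84.0 in control, 67.2 and 210 in model, and 64.0, 95.8 and 88.9 in electroacupuncture. On that scale model B was the highest sample and the operated groups overlapped the controls. The hippocampal sums were alike in models A and B, at 219 and 216 CPM, while Adcy1 was not. Summed neocortical markers (12 listed) were 454, 416 and 378 CPM in control, 441 and 887 CPM in model, and 533, 455 and 413 CPM in electroacupuncture. These sums were highest in model B and lowest in control C. Averaged over the 12 genes as log2 differences from the control mean, the same markers were above control in both model samples. These averages were -0.025, -0.126 and 0.151 in control, 0.806 and 1.031 in model, and 0.441, 0.443 and 0.06 in electroacupuncture. The part of regional makeup in the Adcy1 values was not tested.

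Adcy3 was the isoform with the clearest separation between electroacupuncture and model. It measured 20.3, 20.5 and 24.6 CPM in the control samples, 13.1 and 18.7 CPM in the model samples, and 31.9, 30.5 and 21.7 CPM in electroacupuncture A to C. Both model samples lay below every other sample, and electroacupuncture C lay within the control range. Group means were 21.8 ± 2.47 CPM (SD, n = 3) in control, 15.9 ± 3.99 CPM (SD, n = 2) in model and 28.1 ± 5.53 CPM (SD, n = 3) in electroacupuncture. The log2 fold change of electroacupuncture over model was 0.82 (SE 0.24, 95% interval 0.26 to 1.38, adjusted p = 0.221, edgeR), and that of model over control was -0.45 (SE 0.24, interval -1.01 to 0.10, adjusted p = 0.432). Neither passed the test. Across the alternatives the estimate for electroacupuncture over model lay between 0.58 and 1.11, with adjusted p between 0.0182 and 0.558. The adjusted p of 0.0182 came from the fit in which the near-identical columns count as separate libraries, and DESeq2 on the 8 samples gave 0.0756. In the RefSeq annotation the span of Adcy3 overlaps those of Dnajc27 and Cenpo, and the counting of reads shared by overlapping genes was not given in the sources used here.

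Adcy8 was measured with few counts, from 30 to 205 a sample, for which counting error alone is 18.3% to 6.98%. It measured 12.2, 4.55 and 5.68 CPM in the control samples, 5.63 and 6.57 CPM in the model samples, and 2.602, 8.72 and 6.54 CPM in the electroacupuncture samples. The 3 groups overlapped, and the single high value was control A. Log2 fold changes were -0.30 (SE 0.58, adjusted p = 0.843, edgeR) for model over control and -0.03 (SE 0.57, adjusted p = 0.992) for electroacupuncture over model, with intervals of -1.64 to 1.04 and -1.36 to 1.303.

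Of the calcium-inhibited pair, Adcy5 was set apart by 1 sample. It measured 29.0, 25.9 and 31.8 CPM in the control samples, 50.5 and 42.1 CPM in the model samples, and 272, 34.5 and 24.7 CPM in electroacupuncture A to C. Both model samples lay above every control sample, electroacupuncture A was 9.41 times the control mean, and the other two electroacupuncture samples lay near the controls. Group means were 28.9 ± 2.93 CPM (SD, n = 3) in control, 46.3 ± 5.93 CPM (SD, n = 2) in model and 110.4 ± 140.0 CPM (SD, n = 3) in electroacupuncture, the last becoming 29.6 ± 6.96 CPM (SD, n = 2) without electroacupuncture A. Log2 fold changes were 0.68 for model over control (SE 0.92, 95% interval -1.49 to 2.85, adjusted p = 0.766, edgeR), 1.25 for electroacupuncture over model (SE 0.97, interval -1.02 to 3.52, adjusted p = 0.655) and 1.93 for electroacupuncture over control (SE 0.86, interval -0.09 to 3.96, adjusted p = 0.843). Without electroacupuncture A the estimate over model was -0.63 and that over control was 0.04, so 1 sample set the sign of the first. In the main fit all groups share 1 estimate of the spread. With only model and control fitted, the estimate of model over control was 0.67 (SE 0.16, adjusted p = 0.105, edgeR). Without electroacupuncture A that estimate was 0.67 (SE 0.19, adjusted p = 0.107, edgeR). It did not pass the test in either fit.

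Striatal markers were highest in the same sample. Drd1, the dopamine receptor of direct-pathway striatal neurons, measured 5.59, 2.39 and 2.66 CPM in control, 19.5 and 3.12 CPM in model, and 102, 4.76 and 2.11 CPM in electroacupuncture. Gpr6, a receptor of indirect-pathway striatal neurons, measured 0.917, 0.682 and 1.28 CPM in control, 9.97 and 1.97 CPM in model, and 82.0, 1.28 and 0.738 CPM in electroacupuncture. Electroacupuncture A was highest and model A second for both genes, the order also seen for Adcy5. Per 100 CPM of the summed striatal markers, Adcy5 stood at 14.0, 6.57 and 8.61 in control, 6.16 and 12.6 in model, and 5.20, 9.57 and 11.99 in electroacupuncture. On that scale electroacupuncture A was the lowest sample. Whether the tissue pieces differed in how much striatum they held was not tested.

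**Figure D3:**
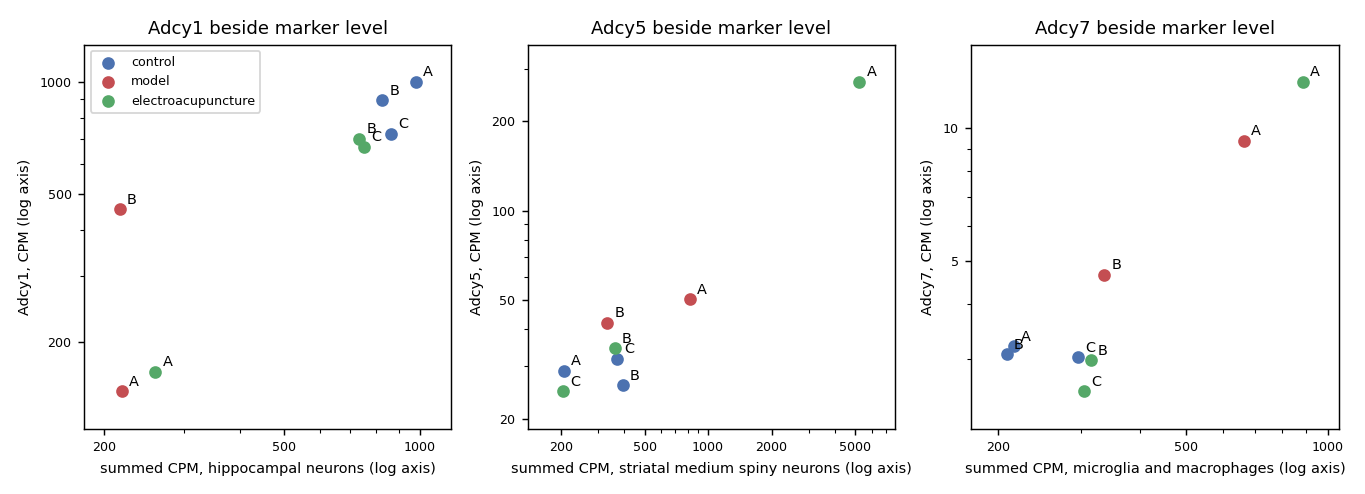
Levels in CPM, both axes on log scales, of Adcy1, Adcy5 and Adcy7 against the summed CPM of hippocampal, striatal and microglial markers in the 8 samples, with lettered points coloured by group. For Adcy5 against striatal markers, electroacupuncture A lies at the top right at 272 CPM of Adcy5 and 5226 CPM of markers, and for Adcy1 against hippocampal markers the 2 model samples and electroacupuncture A lie left of all others.

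Adcy6 varied least of the 9, with 1.48 times between its highest and lowest sample. It measured 21.999, 20.5 and 21.1 CPM in the control samples, 24.3 and 29.3 CPM in the model samples, and 24.6, 23.6 and 19.8 CPM in the electroacupuncture samples. Both model samples lay above every control sample, and the electroacupuncture samples overlapped both groups. Means were 21.2 ± 0.772 CPM (SD, n = 3) in control, 26.8 ± 3.50 CPM (SD, n = 2) in model and 22.7 ± 2.51 CPM (SD, n = 3) in electroacupuncture. The log2 fold change of model over control was 0.34 (SE 0.16, 95% interval -0.04 to 0.72, adjusted p = 0.402, edgeR) and that of electroacupuncture over model was -0.24 (SE 0.16, interval -0.62 to 0.13, adjusted p = 0.590). Neither passed the test. The span of Adcy6 overlaps that of Tuba1c, a tubulin gene, in the RefSeq annotation, and its deposited values had decimals in all 11 columns. Those of Adcy1 also had decimals in 11 columns, those of Adcy5 in 4, those of Adcy7 in 1 and those of Adcy3 in 0. The source of the decimals was not tested.

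Among the beta-gamma-responsive isoforms, Adcy4 and Adcy7 were both higher in model A and electroacupuncture A than in all other samples, while Adcy2 was highest in model B. Adcy7, an isoform known from immune cells and platelets, measured 3.21, 3.07 and 3.02 CPM in the control samples, 9.38 and 4.65 CPM in the model samples, and 12.8, 2.98 and 2.53 CPM in electroacupuncture A to C. Both model samples lay above every control sample, while electroacupuncture A was the highest and electroacupuncture C the lowest of all. Means were 3.10 ± 0.0963 CPM (SD, n = 3) in control, 7.02 ± 3.34 CPM (SD, n = 2) in model and 6.09 ± 5.78 CPM (SD, n = 3) in electroacupuncture. The log2 fold change of model over control was 1.18 (SE 0.70, 95% interval -0.45 to 2.80, adjusted p = 0.485, edgeR), and 0.58 without model A. With only model and control fitted, this estimate was 1.17 (SE 0.36, adjusted p = 0.174, edgeR) and did not pass there. The log2 fold change of electroacupuncture over model was -0.21 (SE 0.69, interval -1.82 to 1.41, adjusted p = 0.932), with -1.33 without electroacupuncture A and 0.38 without model A. Neither passed the test. Counts of Adcy7 ran from 24 to 175 a sample, for which counting error is 20.4% to 7.56%.

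Microglia and macrophage markers were highest in the same 2 samples as Adcy7. Their sum (12 listed, none at 0) was 216, 209 and 296 CPM in control, 664 and 336 CPM in model, and 885, 315 and 304 CPM in electroacupuncture. Tmem119, a microglial membrane protein, measured 9.17, 9.78 and 7.42 CPM in control, 22.9 and 21.7 CPM in model, and 48.7, 14.3 and 14.2 CPM in electroacupuncture. Per 100 CPM of the summed markers, Adcy7 stood at 1.48, 1.47 and 1.02 in control, 1.41 and 1.39 in model, and 1.44, 0.946 and 0.832 in electroacupuncture. On that scale both model samples lay inside the control range. The share of microglia in the tissue was not measured, and its part in the Adcy7 values was not tested.

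Adcy4, found in vascular cells among others, measured 2.93, 6.94 and 4.397 CPM in the control samples, 17.7 and 6.73 CPM in the model samples, and 11.3, 3.83 and 4.22 CPM in the electroacupuncture samples. Model A was highest and electroacupuncture A second, and model B lay just under control B, so the groups overlapped. The log2 fold change of model over control was 1.36 (SE 0.62, 95% interval -0.09 to 2.82, adjusted p = 0.385, edgeR), and that of electroacupuncture over model was -0.93 (SE 0.62, interval -2.37 to 0.51, adjusted p = 0.588). Neither passed the test, and the first was 0.50 without model A and 1.89 without model B. Leaving out model A took the second to -0.07, and leaving out electroacupuncture A took it to -1.60. Cldn5, an endothelial tight junction protein, measured 39.8, 38.5 and 82.9 CPM in control, 39.7 and 72.5 CPM in model, and 99.2, 50.8 and 56.0 CPM in electroacupuncture, so it was highest in electroacupuncture A and near its lowest in model A. Per 100 CPM of the summed endothelial markers (10 listed, 9 in the table), Adcy4 stood at 12.7 in model A and at 1.43 to 5.03 in the other samples. Per 100 CPM of the microglia and macrophage markers, which were highest in the same pair of samples as Adcy4, the model samples stood at 2.66 and 2.01, inside the control range of 1.36 to 3.32. Per 100 CPM of mural cell and fibroblast markers (9 listed), Adcy4 stood at 2.04, 6.61 and 3.88 in control and 12.4 and 7.84 in model. In electroacupuncture it stood at 8.59, 3.79 and 3.91. On that scale both model samples lay above every control sample. The part of any of these cell types in the Adcy4 values was not tested. Counts of Adcy4 ran from 32 to 330 a sample.

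Adcy2 measured 104, 101 and 103 CPM in the control samples, 76.8 and 138 CPM in the model samples, and 47.5, 108 and 87.4 CPM in the electroacupuncture samples. The controls were close together and lay between the model samples. Log2 fold changes were 0.07 for model over control (SE 0.36, 95% interval -0.76 to 0.90, adjusted p = 0.944, edgeR) and -0.41 for electroacupuncture over model (SE 0.36, interval -1.24 to 0.42, adjusted p = 0.694). Summed neuronal markers were also lowest in electroacupuncture A, at 4172 CPM, and highest in model B, at 11372 CPM, and their part in the Adcy2 values was not tested.

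Adcy9 measured 110, 81.1 and 95.2 CPM in the control samples, 44.4 and 97.6 CPM in the model samples, and 65.2, 101 and 75.6 CPM in the electroacupuncture samples. Model A was the lowest sample and the 3 groups overlapped. The log2 fold change of model over control was -0.42 (SE 0.34, 95% interval -1.22 to 0.37, adjusted p = 0.603, edgeR), and that of electroacupuncture over model was 0.18 (SE 0.34, interval -0.61 to 0.98, adjusted p = 0.871). Adcy10, the soluble cyclase that responds to bicarbonate and is no membrane isoform, lay between 0.114 and 1.04 CPM in the 8 samples.

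The ratio of Adcy1 to Adcy5, isoforms with opposite responses to calcium, restates the values above within each sample. It was 34.5, 34.4 and 22.8 in the control samples, 2.91 and 10.8 in the model samples, and 0.612, 20.4 and 27.1 in electroacupuncture A to C. That both model samples lay below every control sample follows from the separate values of the 2 genes, and electroacupuncture A was the one sample with more counts of Adcy5 than of Adcy1. The summed level of the 9 was 1303, 1155 and 1013 CPM in control, 389 and 799 CPM in model, and 634, 1016 and 912 CPM in electroacupuncture. Without Adcy1 the sums were 303, 263 and 289 CPM in control, 242 and 344 CPM in model, and 468, 313 and 243 CPM in electroacupuncture, so that model and control overlapped once Adcy1 was set aside. These sums and ratios are per count and not per transcript length.

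Across the 8 samples the log2 CPM of some isoforms ran opposite to each other. Adcy1 and Adcy7 had a Pearson r of -0.95 (Spearman rho -0.50), and Adcy1 and Adcy4 an r of -0.90 (rho -0.69). Adcy5 and Adcy7 had an r of 0.88 (rho 0.79), and Adcy1 and Adcy9 an r of 0.83 (rho 0.71). For each of these pairs the rank coefficient was the smaller in size. The values of a pair come from the same 8 libraries and depths, so these coefficients describe those libraries.

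Genes with the most similar profile were sought for Adcy5, Adcy1 and Adcy4, the isoforms with the largest spread of log2 CPM, among the 12067 genes whose mean reached 5 CPM. For Adcy1 they were Zbtb18, a transcriptional repressor of neurons (r 0.996, 0.98 over the 6 samples left without model A and electroacupuncture A), Timm23, a subunit of the mitochondrial import channel (r 0.99, 0.94 over 6), and Dnajb5, a heat shock cochaperone (r 0.99, 0.95 over 6). Zbtb18 measured 811, 621 and 562 CPM in control, 108 and 341 CPM in model, and 101, 553 and 526 CPM in electroacupuncture and, like Adcy1, was highest in control and lowest in model A and electroacupuncture A. For Adcy5 they were Rps6ka5 (r 0.99, 0.86 over 6), Lrp4, a receptor of the neuromuscular junction and of brain synapses (r 0.99, 0.95 over 6), and Ptpn5, the phosphatase STEP, which is enriched in the striatum (r 0.99, 0.70 over 6). For Adcy4 they were Slc25a34 (r 0.98, 0.92 over 6), Myo10 (r 0.97, 0.89 over 6) and Rpp40 (r 0.97, 0.97 over 6). These genes were picked as the highest of 12067, so the coefficients carry no test.

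Promoter sequence was available for 6 of the 9 (Adcy1, Adcy2, Adcy4, Adcy5, Adcy7 and Adcy9) and is shown for the 3 of them whose highest sample was model A or electroacupuncture A. Each is the 250 bases before the start that the RefSeq promoter table uses for the gene, written 5′ to 3′ on the gene's strand, from RefSeq assembly GRCr8. Capitals mark GC boxes (GGGCGG on either strand, so CCGCCC on the printed strand counts). For Adcy4 and Adcy7 the RefSeq gene span reaches farther upstream than the start used, so their windows lie partly or wholly within the annotated gene, and that of Adcy7 precedes an internal start.

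Adcy4, chr15:33252027-33252276, minus strand: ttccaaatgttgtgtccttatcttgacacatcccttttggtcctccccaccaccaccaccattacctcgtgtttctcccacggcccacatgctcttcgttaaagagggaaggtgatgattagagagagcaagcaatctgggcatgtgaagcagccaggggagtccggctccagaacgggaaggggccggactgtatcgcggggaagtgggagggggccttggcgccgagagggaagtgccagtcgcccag

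Adcy5, chr11:79123344-79123593, minus strand: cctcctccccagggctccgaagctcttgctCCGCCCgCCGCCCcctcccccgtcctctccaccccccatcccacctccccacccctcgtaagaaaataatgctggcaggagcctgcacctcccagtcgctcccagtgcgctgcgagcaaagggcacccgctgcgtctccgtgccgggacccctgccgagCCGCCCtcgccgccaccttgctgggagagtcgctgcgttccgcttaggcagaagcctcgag

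Adcy7, chr19:34936545-34936794, minus strand: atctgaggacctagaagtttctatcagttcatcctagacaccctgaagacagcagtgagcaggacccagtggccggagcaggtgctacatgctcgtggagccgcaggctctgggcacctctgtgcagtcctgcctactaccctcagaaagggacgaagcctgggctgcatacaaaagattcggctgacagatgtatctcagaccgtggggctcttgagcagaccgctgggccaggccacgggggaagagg

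Adcy5 held 3 GC boxes in a window of 70.0% G and C, whereas Adcy4 and Adcy7 held 0 in windows of 58.0% and 58.4%. Of 33469 rat promoters, windows of the same length held a GC box in 30.5% and had a median of 51.2% G and C. The full cAMP response element TGACGTCA, present in 1.59% of promoters, was in none of the 6 windows, and its shorter core TGACG, present in 18.2%, was in that of Adcy9 alone. The window of Adcy9 lies wholly within its RefSeq gene span. A match or its lack describes these letters only.

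Around the cyclases, the cAMP pathway showed no called gene either. Of 92 further pathway genes listed, all were in the table and 88 were tested, with 0 called in each comparison. Between model and control 9 of 88 (10.2%) had an unadjusted p under 0.05 and 36 of 88 (40.9%) had groups without overlap, against the 13.8% and 37.8% of all genes given above, and the median log2 fold change was 0.13 against 0.02. Between electroacupuncture and model 8 of 88 (9.09%) had an unadjusted p under 0.05 against 13.5%, and 18 of 88 (20.5%) did not overlap against 24.6%. Between electroacupuncture and control 7 of 88 (7.95%), all higher, had an unadjusted p under 0.05 against 3.67%, and 10 of 88 (11.4%) did not overlap against 10.8%. Of those 7 genes, Adora2a, Gpr6, Ppp1r1b and Rgs9 are also on the striatal marker list, which was highest in electroacupuncture A, and the others were Hcn3, Pde4b and Atf1.

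**Figure D4:**
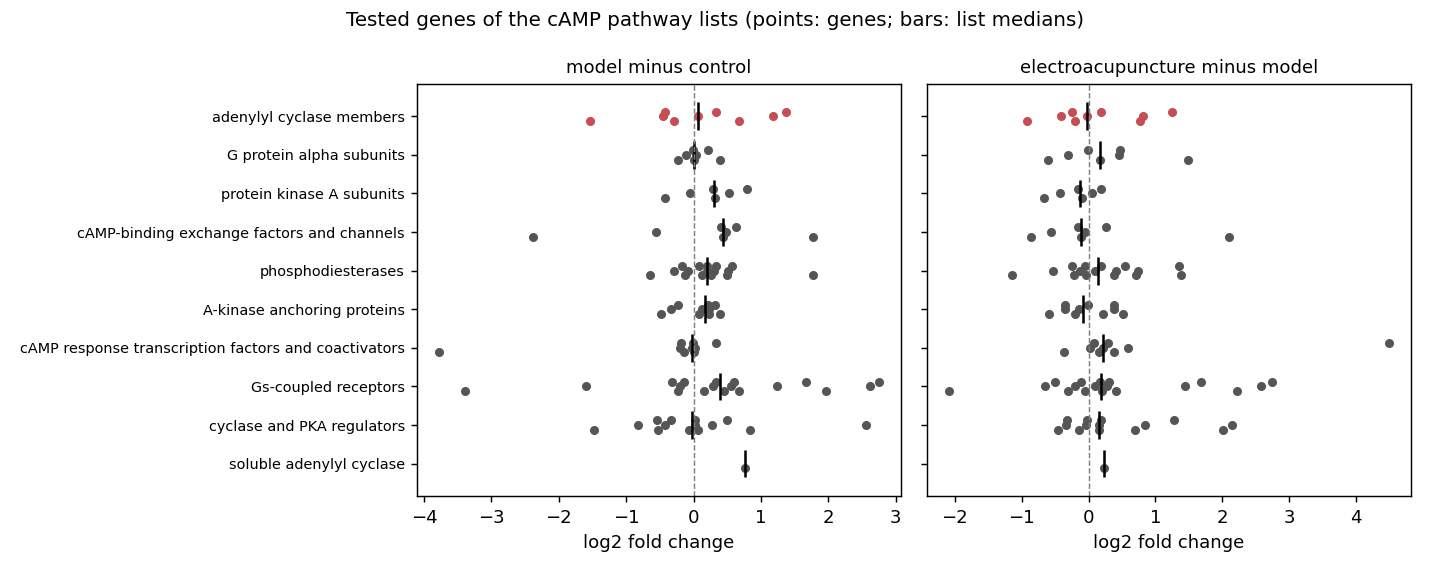
Log2 fold change of each tested gene (points) and the median (bar) in the cAMP pathway lists and the 9 adenylyl cyclases, for model over control and electroacupuncture over model. List medians for model over control include Gs-coupled receptors at 0.39 and G protein alpha subunits at 0.01, and no gene passed the adjusted threshold.

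Receptors coupled to Gs, the activators of the cyclases, were higher in estimate in the model for 12 of 18 tested genes, with a median log2 fold change of 0.39, while 7968 of all 15485 genes were higher in estimate. Of these receptors Drd1, Adora2a and Gpr6 are also striatal markers, which were highest among control and model samples in model A, and their log2 fold changes of model over control were 1.67, 1.97 and 2.61. Gpr12, a constitutively active orphan receptor of neurons, measured 22.9, 20.5 and 19.97 CPM in control, 5.84 and 8.16 CPM in model, and 21.1, 19.2 and 17.0 CPM in electroacupuncture. Both model samples lay below all others, with log2 fold changes of -1.59 (SE 0.21, adjusted p = 0.0845, edgeR) for model over control and 1.45 (SE 0.21, adjusted p = 0.136) for electroacupuncture over model. Crhr1, the corticotropin-releasing hormone receptor, measured 1.83, 2.84 and 3.85 CPM in control, 12.5 and 25.7 CPM in model, and 4.68, 4.59 and 4.22 CPM in electroacupuncture. Here both model samples lay above all others, with log2 fold changes of 2.75 (SE 0.40, adjusted p = 0.0920) and -2.09 (SE 0.39, adjusted p = 0.138). Htr4, a serotonin receptor, was at 5.87, 3.75 and 4.12 CPM in control, 0.857 and 0 CPM in model, and 1.04, 4.63 and 3.06 CPM in electroacupuncture. None of the 3 passed the test.

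Downstream of the cyclases, PKA subunits were higher in estimate in the model for 4 of 6 genes (median 0.31), and exchange factors and channels for 5 of 7 tested (median 0.44). Prkacb, a catalytic subunit of PKA, measured 294, 234 and 278 CPM in control, 347 and 424 CPM in model, and 309, 322 and 226 CPM in electroacupuncture, a log2 fold change of model over control of 0.52 (SE 0.21, adjusted p = 0.338, edgeR). Hcn3, a hyperpolarization-activated pacemaker channel, measured 1.93, 1.71 and 1.83 CPM in control, 5.79 and 6.73 CPM in model, and 4.77, 3.44 and 2.11 CPM in electroacupuncture. Its log2 fold change of model over control was 1.78 (SE 0.38, adjusted p = 0.146, edgeR), and any effect of cAMP on this channel was not measured. For both genes the model samples lay above every control sample, and neither passed the test. Of the transcription factors and coactivators of the cAMP response, 3 of 9 were higher in estimate and 6 lower. Their median was -0.03, near the 0.02 of all genes tested. Creb1, the transcription factor that PKA phosphorylates, measured 34.1, 30.5 and 30.0 CPM in control, 42.1 and 37.2 CPM in model, and 35.0, 32.1 and 24.99 CPM in electroacupuncture, a log2 fold change of 0.33 (SE 0.18, adjusted p = 0.435). Its coactivator Crebbp measured 78.2, 2.96 and 2.11 CPM in control, 2.09 and 1.97 CPM in model, and 69.9, 2.76 and 65.1 CPM in electroacupuncture. Crebbp thus lay between 65.1 and 78.2 CPM in 3 samples of the control and electroacupuncture groups and under 3 CPM in the other 5. Both model samples lay below all others, by little against control C at 2.11 CPM, and the log2 fold change of model over control was -3.77 (SE 1.99, adjusted p = 0.437, edgeR), which did not pass the test.

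Phosphodiesterases, which degrade cAMP, were higher in estimate in the model for 11 of 16 genes (median 0.20), A-kinase anchoring proteins for 7 of 10 (median 0.17), and G protein alpha subunits for 4 of 7 (median 0.01). Gnas, the Gs alpha subunit, measured 2370, 2720 and 2539 CPM in control, 3332 and 2579 CPM in model, and 930.45, 2166 and 2706 CPM in electroacupuncture, with the lowest value in electroacupuncture A. Its log2 fold change of model over control was 0.22 (SE 0.41, adjusted p = 0.838, edgeR). Cyclase and PKA regulators were split, 7 higher and 7 lower (median -0.02). Among them Cap1, a cyclase-associated actin regulator, measured 340, 283 and 281 CPM in control, 165 and 176 CPM in model, and 258, 291 and 284 CPM in electroacupuncture. Both model samples lay below all others, with log2 fold changes of -0.82 (SE 0.16, adjusted p = 0.136, edgeR) for model over control and 0.70 (SE 0.16, adjusted p = 0.164) for electroacupuncture over model, neither past the test.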

How the data were processed

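Poly(A) RNA of rat brain tissue went into stranded paired-end libraries with unique molecular identifiers in the adapters, per the labels' protocols. Whether reads were collapsed by identifier was not given in the sources used here. Values in the deposited table are expected counts (estimated counts, of which 70.5% to 72.1% per column were whole) without normalization. Per the submitters' processing notes, the tools were DESeq2 1.16.1, featureCounts 1.5.0-p3, HISAT2 2.0.5 and StringTie 1.3.3b, with no roles given. The genome build, the strand setting and the treatment of reads shared between genes were not given in the sources used here.

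Column names gave the group but not the labelled sample. The 18804 rows held 4 symbols on 2 rows each, which were summed to 18800, and no column was left unused. Pairs of columns of 1 group whose median squared difference was under 2 times the sampling variance, taken over genes whose counts in the pair summed to 20 or more, were summed, which left 8 samples; values were then rounded to whole numbers. The test was the two-sided quasi-likelihood F test of edgeR 4.0.16 (R 4.3.3), with TMM scaling, robust dispersion and the default filter on low expression by group (all 8 samples in 1 fit, 5 residual degrees of freedom, Benjamini-Hochberg adjustment over 15485 genes, called under 0.05). The common biological coefficient of variation was 36.8%. CPM used the TMM-scaled totals, and counting errors cover counting alone. The steps were also run on simulated counts with a smaller spread between samples than that of these data. That run does not show how many true differences the fit would find here.

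The members, pathway lists and marker lists were chosen with earlier results of these data known. Named pathway genes, Gnas among them, were drawn from the 3 per list with the smallest p between model and control. Exceptions were the genes set beside the striatal markers or named for electroacupuncture over control. Gnas and these exceptions were chosen after their values were seen. The most similar genes were the 3 per isoform with the highest Pearson r. Alternatives were other scalings and filters, DESeq2 1.42.0, only the compared groups, all 11 columns as separate libraries, and leaving out each sample.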

Additional observations from a re-analysis of the deposited data

How the results depend on the processing

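Of the isoforms' log2 fold changes under alternatives other than leaving out a sample, 187 kept direction and side of the threshold, 1 newly passed it and 1 changed sign. Both exceptions came from the 11 columns as separate libraries, for electroacupuncture over model: Adcy3, the 1 member called, and Adcy8, at 0.12. The number of all genes called was far less stable. Between model and control it was 1129 with 11 columns, 0 with total-count scaling, 786 by DESeq2 and 294 with only the compared groups fitted. Between electroacupuncture and model it was 1666 with 11 columns and 697 by DESeq2, and between electroacupuncture and control 1 by DESeq2.

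Leaving out 1 sample gave 0 to 565 genes called between model and control and 0 to 308 between electroacupuncture and model. No isoform was called in any of these fits. The counts were 357 and 308 without model A, and 565 and 279 without electroacupuncture A. Of the isoforms' estimates, 200 kept their sign and 16 did not. For model over control the ranges on the log2 scale were -0.42 to 0.43 for Adcy2, -0.55 to 0.25 for Adcy8 and -1.11 to 0.032 for Adcy9. For electroacupuncture over model they were -0.77 to 0.080 for Adcy2, -0.63 to 1.72 for Adcy5, -1.33 to 0.38 for Adcy7, -0.44 to 0.33 for Adcy8 and -0.27 to 0.87 for Adcy9. For electroacupuncture over control they were -0.24 to 0.81 for Adcy4, -0.16 to 1.34 for Adcy7 and -0.73 to 0.22 for Adcy8. The causes were not tested. A sample left alone in its group is assumed to vary like the others.

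No paired analysis was possible because the columns could not be tied to labelled samples, and the summed samples carry 2 column numbers. With 2 or 3 samples a group, the intervals of Adcy1, Adcy4, Adcy5 and Adcy7 span several-fold differences, and low counts limit Adcy4, Adcy7 and Adcy8.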
